A study of Danio rerio with 21 samples.

Results

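The genes of DNA replication and of mitosis were followed in the telencephalon of adult zebrafish after chronic gamma irradiation. The list held 42 gene names, and 41 of them were found among the named Ensembl genes. Since mcm6 and rrm2 each belong to 2 IDs, 43 of the 32057 IDs in the files were analysed. They fall into 12 IDs of origin licensing and of the replicative helicase, 10 of the replication fork and of nucleotide supply, 2 of the G1 cyclins, 8 of entry into and exit from mitosis, and 11 of chromosomes, the spindle checkpoint and the spindle. The first 2 classes are called S-phase genes (22 IDs) and the last 2 mitotic genes (19 IDs). The name birc5a was not found, and this gene was not analysed here.

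All fish were adults of the wild-type AB strain, and all samples were taken on day 36. Batch 1 held control fish, fish at 0.5 mGy/h and fish at 5 mGy/h (3 libraries each). Batch 2 held fish at 0.05 mGy/h and control fish of their own (6 libraries each). Exposed fish received external gamma rays from a caesium source, and the control fish received none. According to the methods of the study, a library holds the pooled RNA of 3 to 4 dissected telencephalons, with the sexes balanced within a condition, so that the values are of pools and not of single fish. Every dose rate was set against the control libraries of the same batch, since batch and dose rate cannot be told apart across batches.

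The zebrafish telencephalon keeps radial glia and other progenitors along its ventricle throughout adult life, and these cells divide to give new neurons. Before S phase the MCM helicase is loaded at replication origins by ORC, Cdc6 and Cdt1, and it is then activated with the GINS complex, while PCNA clamps the polymerases at the fork. Mitosis is driven by Cdk1 with cyclins A and B, and most transcripts of both programmes are most abundant in cells that cycle. In bulk RNA of a whole telencephalon, fewer dividing cells and less RNA per dividing cell cannot be told apart.

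Libraries held 19.0 to 31.5 M reads counted on genes at 0.05 mGy/h, 23.8 to 40.5 M in the controls of batch 2, and 45.4 to 71.6 M in batch 1. Levels are given as CPM, counts scaled to the library size with TMM factors within a batch. A total of 3 counts, taken as the floor, came to between 0.0419 and 0.158 CPM, and this covers counting error only. A pair of libraries stood apart from their groups. Control replicate 6 of batch 2 correlated with the other controls of its group at 0.830 to 0.846 (Pearson's r of log values over genes), where the libraries at 0.05 mGy/h correlated at 0.977 or more. Replicate 1 at 5 mGy/h correlated with the other libraries of its group at 0.924 and 0.936, against 0.990 between those. The 5 telencephalic markers matched by name summed to between 316 and 684 CPM in every library, with the highest sum in control replicate 6. In control replicate 6 the 5 markers of the preoptic area and hypothalamus summed to 1420 CPM, against 94.5 to 170 CPM in the other controls of batch 2 and 121 to 186 CPM at 0.05 mGy/h. The sum of its markers of microglia and leukocytes was also high, at 867 CPM, against at most 322 CPM in the other controls. This held for the sum and not across these markers. Over 8 of them the mean log2 level was 2.86 in control replicate 6, against 2.92 to 3.15 in the other controls. Its red cell markers summed to 330 CPM, against at most 126 CPM. The 3 markers of the habenula summed to 15.1 CPM in 1 library at 0.05 mGy/h and to at most 2.84 CPM in the others, against at most 1.42 CPM in the controls of batch 2. Values are therefore given with and without these libraries where they touch a result.

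At 0.05 mGy/h, most of the proliferation genes had lower levels than in the controls, and none passed the test across all genes. Of the 41 IDs tested, 39 were lower and 2 were higher, with a median log2 fold change of −0.47, where the median of all genes was −0.01. With edgeR's quasi-likelihood test, 0 of the 41 had an fdr under 0.05 together with a fold change of at least 1.5, and 0.00514% of the 19454 genes tested did. DESeq2 also returned 0 of them, where it returned 0.0541% of 27727 genes. The smallest fdr of a proliferation gene was 0.75. At an unadjusted p under 0.05, 19 of the 41 were lower and 0 were higher, where 4.26% of all genes passed, 1.32% as higher and 2.95% as lower. In 4 of the 41 every library at 0.05 mGy/h lay below every control, where 0.853% of all genes did not overlap, 0.314% above and 0.54% below the controls. These 4 were cdk1, ccna2, top2a and gins2. The proliferation genes were measured in the same libraries, and many of them are expressed together in dividing cells, so that they are not separate observations.

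Averaged over the list, the mitotic genes separated the groups of batch 2 without overlap. Their mean of log2(CPM + 0.5) lay between 1.33 and 1.55 at 0.05 mGy/h, against 1.69 to 1.76 in 5 of the controls and 2.32 in control replicate 6. The mean of the S-phase genes lay between 2.07 and 2.19 at 0.05 mGy/h, against 2.15 to 2.40 in the same 5 controls and 3.27 in control replicate 6. The ranges of the S-phase genes overlapped through control replicate 1, at 2.15. Lists of other S-phase and other mitotic genes, followed below, both separated the groups of batch 2. The means of the other S-phase genes lay between 2.07 and 2.14 at 0.05 mGy/h, against 2.16 to 2.91 in the controls. Those of the other mitotic genes lay between 1.43 and 1.59, against 1.65 to 2.21. These lists were read in the same libraries and are not separate observations either. Of the mitotic genes 17 of 18 were lower (median log2 fold change −0.48, 11 at an unadjusted p under 0.05). Of the S-phase genes 20 of 21 were lower (median −0.54, 7 at an unadjusted p under 0.05). Whether the classes differed from each other was not tested.

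**Figure D1:**
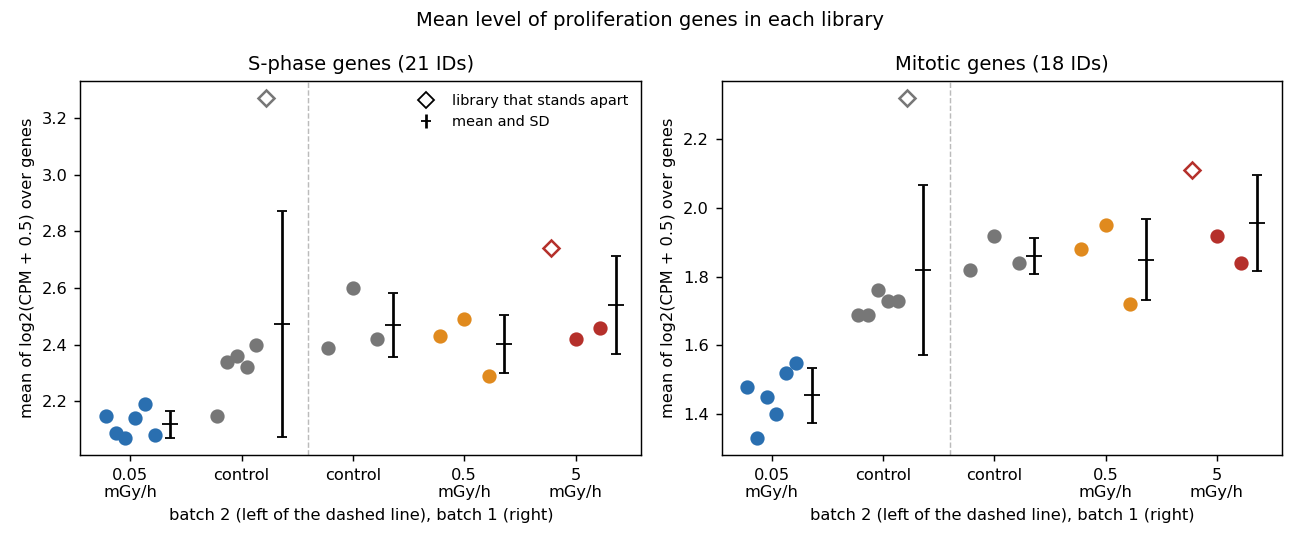
Mean of log2(CPM + 0.5) over the S-phase genes (left panel, 21 IDs) and the mitotic genes (right panel, 18 IDs) in each of the 21 libraries, with the mean and SD of each group beside its points. Open diamonds are control replicate 6 of batch 2 and replicate 1 at 5 mGy/h. The mitotic genes at 0.05 mGy/h lie between 1.33 and 1.55, below all the controls of batch 2, and the groups of batch 1 overlap.

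The genes of mitotic entry and exit were lower at 0.05 mGy/h in 7 of 7 tested (median log2 fold change −0.61). cdk1, the kinase that starts mitosis, had the smallest p of the list. Its level at 0.05 mGy/h had a lowest value of 1.43, a median of 1.77 and a highest value of 2.04 CPM, against 2.44, 2.73 and 5.02 CPM in the controls. The groups did not overlap, and the log2 fold change was −0.88 (SE 0.210, 95% interval −1.34 to −0.43, edgeR fdr = 0.75). ccna2, the cyclin A of dividing somatic cells, ranged from 1.87 to 2.37 CPM around a median of 2.18 CPM, against 2.71 to 5.10 CPM around 2.97 CPM in the controls. Here, too, the groups did not overlap (log2 fold change −0.61, SE 0.183, −1 to −0.21). plk1, a kinase of centrosome maturation and of the mitotic spindle, ranged from 0.641 to 1.15 CPM around 0.925 CPM, against 1.07 to 3.96 CPM around 1.54 CPM. One control lay within the exposed range, and the log2 fold change was −1.03 (SE 0.316, −1.71 to −0.34). ccnb1, the cyclin B that binds Cdk1, was less clear. It ranged from 1.65 to 2.65 CPM around 1.94 CPM at 0.05 mGy/h, against 1.87 to 6.00 CPM around 2.15 CPM in the controls (log2 fold change −0.46, 95% interval −1.09 to 0.17). ube2c, the ubiquitin-conjugating enzyme of the anaphase-promoting complex, also had an unadjusted p under 0.05 (−0.95, −1.85 to −0.04). The intervals of aurka, a kinase of spindle poles, and cdc20, an activator of the anaphase-promoting complex, included no difference (−0.53 and −0.27). ccnb2, another cyclin B, was below the expression filter in this batch, at 0.108 to 0.549 CPM.

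Among the genes of chromosomes, checkpoint and spindle, 10 of 11 were lower and 7 had an unadjusted p under 0.05 (median log2 fold change −0.47). top2a, the topoisomerase that resolves DNA before chromosomes separate, ranged from 9.60 to 13.3 CPM around 11.2 CPM at 0.05 mGy/h, against 13.3 to 18.9 CPM around 15.7 CPM in the controls. The groups met at 13.3 CPM without crossing, and the log2 fold change was −0.48 (SE 0.130, 95% interval −0.76 to −0.20). mki67, which codes for the Ki-67 antigen and is the marker most used to count cycling cells, ranged from 11.5 to 14.2 CPM around 12.6 CPM, against 13.6 to 16.7 CPM around 15.3 CPM. Its groups overlapped slightly, and the difference was small (log2 fold change −0.25, SE 0.107, −0.48 to −0.02). In control replicate 6 mki67 was at 15.3 CPM, within the range of the other controls. kif11, the motor that separates spindle poles, ranged from 2.01 to 3.34 CPM around 2.32 CPM, against 2.86 to 4.47 CPM around 3.57 CPM. Exposed libraries reached into the range of the controls, and the log2 fold change was −0.54 (SE 0.172, −0.91 to −0.17). The others with an unadjusted p under 0.05 were cdca8 of the chromosomal passenger complex (−0.74, −1.38 to −0.11), the spindle checkpoint kinase bub1bb (−0.47, −0.91 to −0.04), and the spindle assembly genes tpx2 (−0.47, −0.89 to −0.06) and nusap1 (−0.44, −0.84 to −0.05). The remaining genes had intervals that included no difference. Their log2 fold changes were −0.48 for aurkb, the kinase of the passenger complex, −0.20 for the checkpoint kinase bub1, −0.19 for kif23, a motor of the late spindle, and 0.00 for cenpf, a kinetochore protein.

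**Figure D2:**
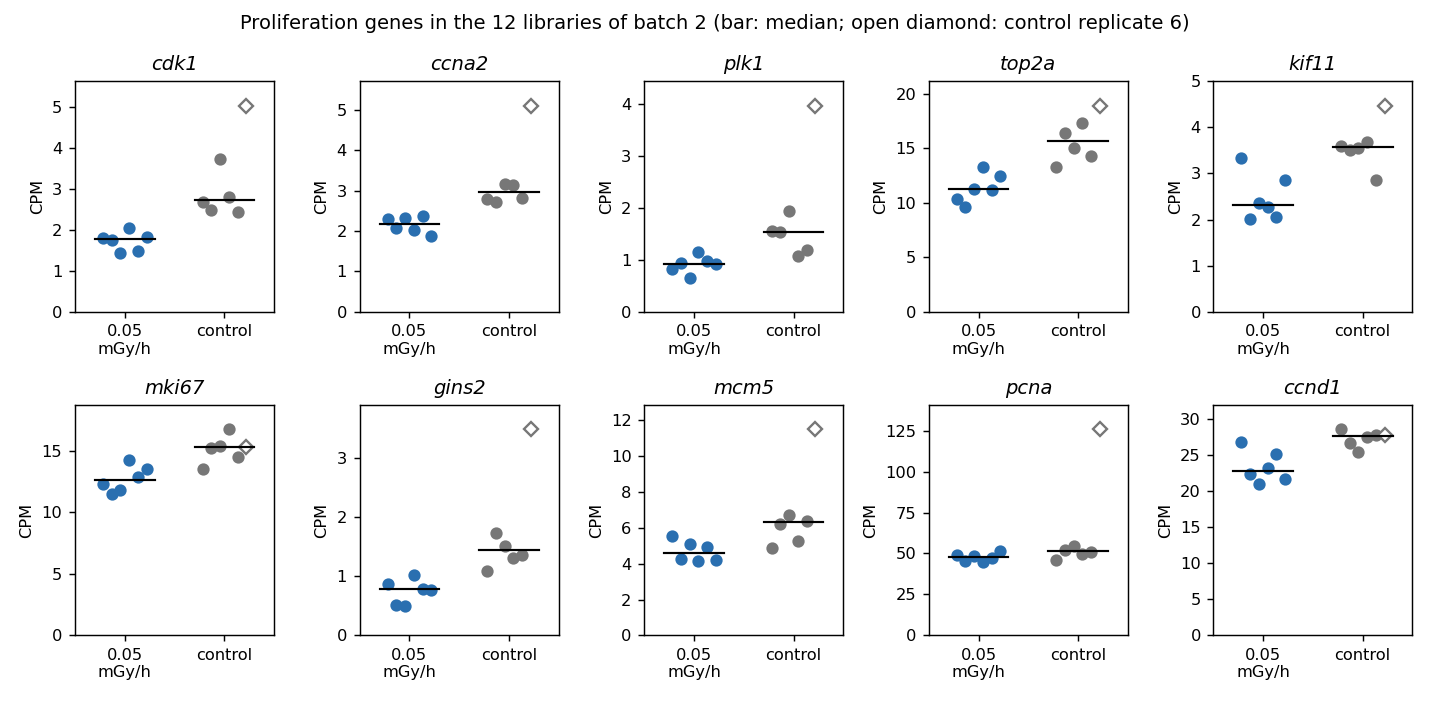
CPM of 10 proliferation genes in the 12 libraries of batch 2, with fish at 0.05 mGy/h left of the controls, bars at the group medians and control replicate 6 as an open diamond. The groups do not overlap for cdk1, ccna2, top2a and gins2, while pcna at 0.05 mGy/h (44.9 to 51.2 CPM) lies within or just below the range of the controls other than replicate 6.

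The genes of origin licensing and of the helicase were lower in 10 of 11 tested, 5 of them at an unadjusted p under 0.05 (median log2 fold change −0.47). gins2, a subunit of the GINS complex that activates the helicase, had the largest difference of the list. It ranged from 0.493 to 1.02 CPM around 0.779 CPM at 0.05 mGy/h, against 1.1 to 3.49 CPM around 1.44 CPM in the controls, with no overlap. The log2 fold change was −1.22 (SE 0.307, 95% interval −1.88 to −0.55, edgeR fdr = 0.75), and it rests on 10 to 31 reads per library at 0.05 mGy/h and 32 to 89 in the controls. The subunits of the MCM ring were unequal in their differences, and these are not compared by a test. For mcm5 the level ranged from 4.15 to 5.54 CPM around 4.60 CPM, against 4.87 to 11.5 CPM around 6.32 CPM (log2 fold change −0.54, SE 0.206, −0.98 to −0.09), and the groups overlapped. The unadjusted p was also under 0.05 for mcm3 (−0.38, −0.70 to −0.06), mcm4 (−0.64, −1.16 to −0.13) and the expressed copy of mcm6 (−0.47, −0.80 to −0.13). The level of mcm2 ranged from 3.77 to 5.21 CPM around 4.93 CPM, against 4.29 to 18.2 CPM around 5.62 CPM, and its interval included no difference (log2 fold change −0.61, −1.34 to 0.11). The log2 fold change of mcm7 was −0.12 (−1.04 to 0.81). The other ID named mcm6 (ENSDARG00000033231) had at most 0.0881 CPM in any library and was not tested. The licensing factors cdc6 and cdt1 had log2 fold changes of −0.34 (−0.81 to 0.14) and −0.68 (−1.39 to 0.03). gins1, another GINS subunit, was at −0.47 (−1.27 to 0.32), and orc1 of the origin recognition complex was at 0.15 (−0.42 to 0.72).

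The genes of the replication fork and of nucleotide supply were lower in 10 of 10, but only chaf1a and tyms had an unadjusted p under 0.05 (median log2 fold change −0.54). chaf1a codes for a chaperone that places histones on new DNA, and tyms for thymidylate synthase. Their log2 fold changes were −0.64 (SE 0.220, 95% interval −1.12 to −0.17) and −0.77 (SE 0.282, −1.38 to −0.16). The level of pcna, the sliding clamp, ranged from 44.9 to 51.2 CPM around 47.9 CPM at 0.05 mGy/h, against 46.2 to 126 CPM around 51.4 CPM in the controls. Its groups overlapped (log2 fold change −0.40, SE 0.228, −0.90 to 0.09). The level of dut, the dUTPase that keeps uracil out of DNA, gave a log2 fold change of −0.82 (SE 0.482, −1.86 to 0.23). This gene was at 43.6 CPM in control replicate 6 and at 6.65 to 7.47 CPM in the other controls. The log2 fold changes were −0.54 for fen1, which trims Okazaki fragments (−1.10 to 0.02), −0.35 for lig1, the ligase that joins them (−0.78 to 0.08), −0.24 for rrm1, the large subunit of ribonucleotide reductase (−0.54 to 0.06), and −0.23 for tk1, a thymidine kinase (−0.65 to 0.18).

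The subunit rrm2 of ribonucleotide reductase, which makes deoxynucleotides, has 2 IDs in the annotation, ENSDARG00000020711 and ENSDARG00000078069. They are reported with caution, since reads of near-identical copies may be divided between them. At 0.05 mGy/h the first ranged from 1.81 to 6.41 CPM around 5.43 CPM, against 4.42 to 16.7 CPM around 5.86 CPM in the controls (log2 fold change −0.65, SE 0.363). The second ranged from 1.23 to 5.41 CPM around 3.04 CPM, against 1.06 to 6.35 CPM around 4.40 CPM (log2 fold change −0.54, SE 0.400). Neither had a p under 0.05. The sum of both was steadier than either of them. It ranged from 7.17 to 9.20 CPM at 0.05 mGy/h, and from 9.54 to 10.3 CPM in 5 of the controls, with 23.0 CPM in control replicate 6. The sum was formed after the values had been seen and was not tested.

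Of the G1 cyclins, ccnd1, which couples growth signals to the cell cycle, ranged from 21.1 to 26.9 CPM around 22.9 CPM at 0.05 mGy/h, against 25.5 to 28.6 CPM around 27.7 CPM in the controls. The groups overlapped through 1 exposed library, and the log2 fold change was −0.22 (SE 0.0982, 95% interval −0.44 to −0.01), with an unadjusted p under 0.05. Like mki67, it was within the range of the other controls in control replicate 6, at 27.9 CPM. For ccne2, a cyclin E of S-phase entry, the log2 fold change was −0.28 (−0.73 to 0.16).

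Control replicate 6 had high levels of most of these genes. It was above all the other controls in 32 of the 41 genes, below them in 2 (tk1 and cenpf) and within their range in 7. The largest excesses were in dut (6.39-fold over the mean of the other controls), mcm7 (4.49-fold), aurkb (4.14-fold) and ube2c (4.02-fold). Without this library, 35 of the 41 were lower and 6 were higher at 0.05 mGy/h. The median log2 fold change was then −0.28 for the S-phase genes and −0.30 for the mitotic genes, against 0.01 for all genes. By class the medians were −0.33 for origin licensing and the helicase (8 of 11 lower), −0.25 for the fork and nucleotide supply (9 of 10 lower), −0.37 for mitotic entry and exit (7 of 7 lower) and −0.29 for chromosomes, checkpoint and spindle (9 of 11 lower). With edgeR 0 of the 41 passed the fdr and the fold change, where 0.041% of 19527 genes did. At an unadjusted p under 0.05, 18 were lower and 1 was higher, where 4.16% of all genes were lower and 3.78% were higher. The gene that was higher was mcm7, with a log2 fold change of 0.53 (SE 0.220, fdr = 0.587).

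The genes with the clearest differences kept negative log2 fold changes without replicate 6. The log2 fold changes were then −0.71 for cdk1 (edgeR fdr = 0.202), −0.90 for gins2 (0.254), −0.43 for top2a (0.254), −0.44 for ccna2 (0.355), −0.66 for plk1 (0.447) and −0.47 for kif11 (0.48). mki67 and ccnd1 kept their values of −0.25 and −0.22. In contrast, mcm2, pcna and ccnb1 were then at −0.12, −0.08 and −0.10, ube2c was at −0.37, and dut and aurkb were at 0.10 and 0.11. DESeq2 without this library, an alternative added after the values had been seen, returned cdk1 alone (log2 fold change −0.70, fdr = 0.024), where 0.13% of genes passed. In simulated data with the design of 0.05 mGy/h, 17.4% of the genes that DESeq2 returned had not been changed, against 5.71% with edgeR. This fdr of DESeq2 is therefore to be read with caution.

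**Figure D3:**
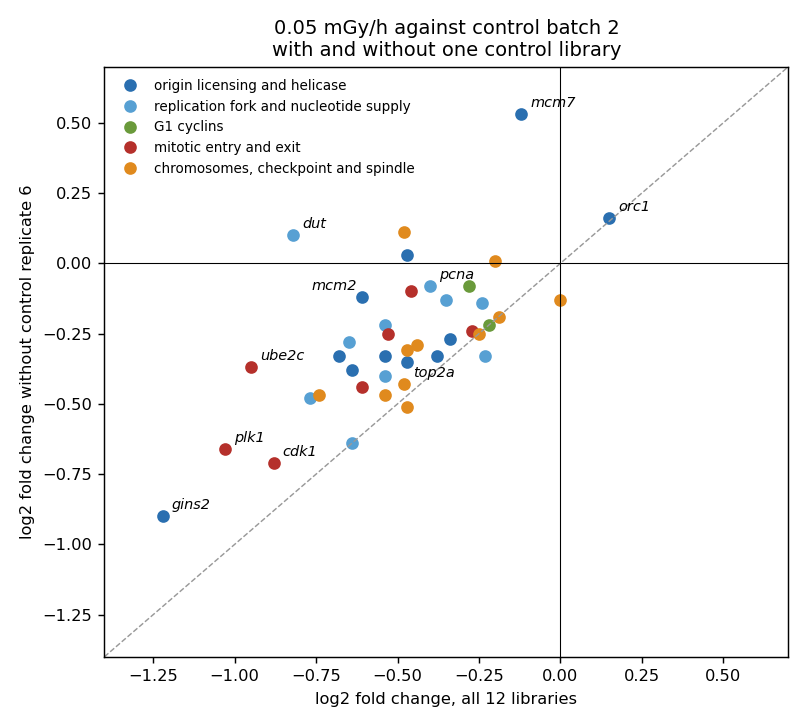
log2 fold changes of the 41 tested genes at 0.05 mGy/h against control batch 2, with all 12 libraries (horizontal axis) and without control replicate 6 (vertical axis), and the line of equal values dashed. Most points lie above the dashed line and below 0, with cdk1 at −0.88 and −0.71, gins2 at −1.22 and −0.90, and mcm7 at −0.12 and 0.53.

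Further genes of both programmes, taken from lists of other replication and mitotic genes, were lower as well at 0.05 mGy/h. Of 29 other S-phase genes 28 were lower (median log2 fold change −0.37), 4 of them at an unadjusted p under 0.05. These were led by chaf1b (−0.54, SE 0.182), the partner of chaf1a, dscc1 (−0.63, SE 0.215), which helps to load PCNA, and rpa1 (−0.27, SE 0.121), which coats single-stranded DNA. Of 32 other mitotic genes 30 were lower (median −0.33), 11 of them at an unadjusted p under 0.05. These were led by kif2c (−0.63, SE 0.153), ndc80 (−0.65, SE 0.193) and cks1b (−0.61, SE 0.187), which act in microtubule turnover, at the kinetochore and on cyclin-dependent kinases. None of them passed the fdr with edgeR. Of all genes 4.26% had an unadjusted p under 0.05, 2.95% as lower. Without control replicate 6, 25 of 29 and 27 of 31 were lower, with medians of −0.14 and −0.24. Then 3 and 9 were lower at an unadjusted p under 0.05, where 4.16% of all genes were. Of 11 inhibitors of the cell cycle 6 were higher and 5 lower (median 0.07), and 0 had an unadjusted p under 0.05.

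Markers of the cells that could hold these transcripts were compared in the same way, as far as they were found by name. Of the names listed, 9 of 15 were found for radial glia and 5 of 15 for neuroblasts and new neurons. For oligodendrocyte precursors 6 of 7 were found, and for microglia and leukocytes 10 of 13. Common markers such as fabp7a, dlx2a and dcx were not found and are not covered here. Of 9 radial glial markers 6 were lower (median log2 fold change −0.20), and 0 had an unadjusted p under 0.05. Their summed level ranged from 656 to 936 CPM at 0.05 mGy/h, against 807 to 1450 CPM in the controls, of which all but replicate 6 were at most at 930 CPM. The medians were −0.24 over 4 markers of neuroblasts and new neurons, −0.08 over 5 of oligodendrocyte precursors and −0.16 over 8 of microglia and leukocytes, with 0 at an unadjusted p under 0.05. Without control replicate 6 the medians were −0.11, 0.05, 0.11 and 0.02, with msi1 of the radial glia (−0.16, SE 0.0705) and csf1ra of the microglia (0.30, SE 0.0921) at an unadjusted p under 0.05. The part of these cells in the differences of the proliferation genes was not tested.

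At 0.5 mGy/h, the proliferation genes stayed close to the controls of batch 1. Of 42 IDs tested, 16 were higher and 26 lower, with a median log2 fold change of −0.03, where the median of all genes was 0.01. With edgeR 0 of them passed the fdr and the fold change, where 0.00469% of 21307 genes did, and 0 had an unadjusted p under 0.05, where 2.37% of all genes did, 0.939% as higher and 1.43% as lower. DESeq2 returned 0 as well, where it returned 0.0393% of 27971 genes. It gave 1 of them an unadjusted p under 0.05, where 1.94% of all genes in DESeq2 had such a p. The median was −0.05 for the S-phase genes and −0.02 for the mitotic genes. mki67 was at 14.6, 15.4 and 12.7 CPM at 0.5 mGy/h, against 11.6, 14.8 and 13.5 CPM in the controls, and the groups overlapped (log2 fold change 0.10, 95% interval −0.20 to 0.40). pcna was at 48.9, 53.7 and 50.4 CPM, against 49.7, 59.0 and 50.8 CPM (−0.06, −0.43 to 0.31). cdk1 was at 2.60, 3.23 and 2.27 CPM, against 2.68, 2.82 and 2.42 CPM (0.03, −0.52 to 0.58). The groups overlapped for each of them. Only ccnd1 had groups that did not overlap, where 11.1% of all genes did not overlap, 4.42% above and 6.65% below the controls. It was at 32.4, 35.4 and 33.2 CPM at 0.5 mGy/h, against 30.3 CPM in each of the controls (log2 fold change 0.15, SE 0.0709, 95% interval −0.01 to 0.31, edgeR fdr = 1).

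The other genes followed in full had small differences and wide intervals at 0.5 mGy/h. The log2 fold changes were −0.02 for mcm2 (95% interval −0.42 to 0.37), 0.12 for mcm5 (−0.40 to 0.65), 0.10 for top2a (−0.19 to 0.39), 0.07 for ccnb1 (−0.46 to 0.60) and −0.04 for plk1 (−0.49 to 0.42). The IDs of rrm2 varied widely among the libraries at 0.5 mGy/h. ENSDARG00000078069 was at 5.57, 0 and 6.03 CPM at 0.5 mGy/h, against 2.75, 1.81 and 1.76 CPM in the controls, and ENSDARG00000020711 was at 4.78, 12.2 and 4.81 CPM, against 6.52, 9.39 and 7.96 CPM. The library without reads for the second copy had the highest level of the first. The sum of both was at 10.3, 12.2 and 10.8 CPM, against 9.27, 11.2 and 9.72 CPM.

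At 5 mGy/h, most of the proliferation genes were slightly above the controls, but not without replicate 1. Of 42 IDs tested, 31 were higher and 11 lower (median log2 fold change 0.12, where all genes had 0.03). With edgeR 0 passed the fdr and the fold change, where 0.00469% of genes did, and 0 had an unadjusted p under 0.05, where 5.76% of genes did, 3.26% as higher and 2.5% as lower. DESeq2 returned 0 as well, where it returned 0.315% of 27971 genes. The median was 0.09 for the S-phase genes and 0.15 for the mitotic genes. mki67 was at 14.4, 16.2 and 15.5 CPM at 5 mGy/h, against 11.6, 14.8 and 13.5 CPM in the controls (log2 fold change 0.21, 95% interval −0.09 to 0.51). top2a was at 14.4, 16.6 and 16.0 CPM, against 12.7, 14.8 and 13.6 CPM (0.19, −0.10 to 0.49). Both overlapped the controls by 1 library. pcna was at 67.8, 44.0 and 48.3 CPM, against 49.7, 59.0 and 50.8 CPM, with its highest value in replicate 1 (0.01, −0.36 to 0.37). The groups did not overlap in 2 of 42, where 8.89% of all genes did not overlap, 3.94% above and 4.95% below the controls. The level of aurka was lower at 0.511, 0.301 and 0.374 CPM, against 0.521, 0.546 and 0.523 CPM (log2 fold change −0.43, −1.02 to 0.16). That of ccnd1 was higher at 32.0, 32.1 and 31.6 CPM, against 30.3 CPM in each control (0.07, −0.09 to 0.24).

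The log2 fold changes of the other genes followed at 5 mGy/h were 0.01 for mcm2 (95% interval −0.38 to 0.40), 0.17 for mcm5 (−0.36 to 0.69), 0.00 and 0.77 for the IDs of rrm2, 0.06 for cdk1 (−0.49 to 0.61), 0.20 for ccnb1 (−0.33 to 0.73) and 0.00 for plk1 (−0.46 to 0.45). Replicate 1 at 5 mGy/h was the highest of the 9 libraries of batch 1 in 19 of the 42 genes and the lowest in 0. Its S-phase genes summed to 230 CPM, against 169 and 178 CPM in the other libraries at 5 mGy/h and 176 to 203 CPM in the controls. Without it, 17 were higher and 25 lower at 5 mGy/h, and the medians were −0.05 for the S-phase genes and 0.00 for the mitotic genes. Then 0 of the 42 passed with edgeR, where 6.34% of 21673 genes did, and 2 were lower at an unadjusted p under 0.05, aurka (−0.66) and rrm1 (−0.23), and 0 were higher, where 10% of all genes were lower and 14.1% were higher.

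**Figure D4:**
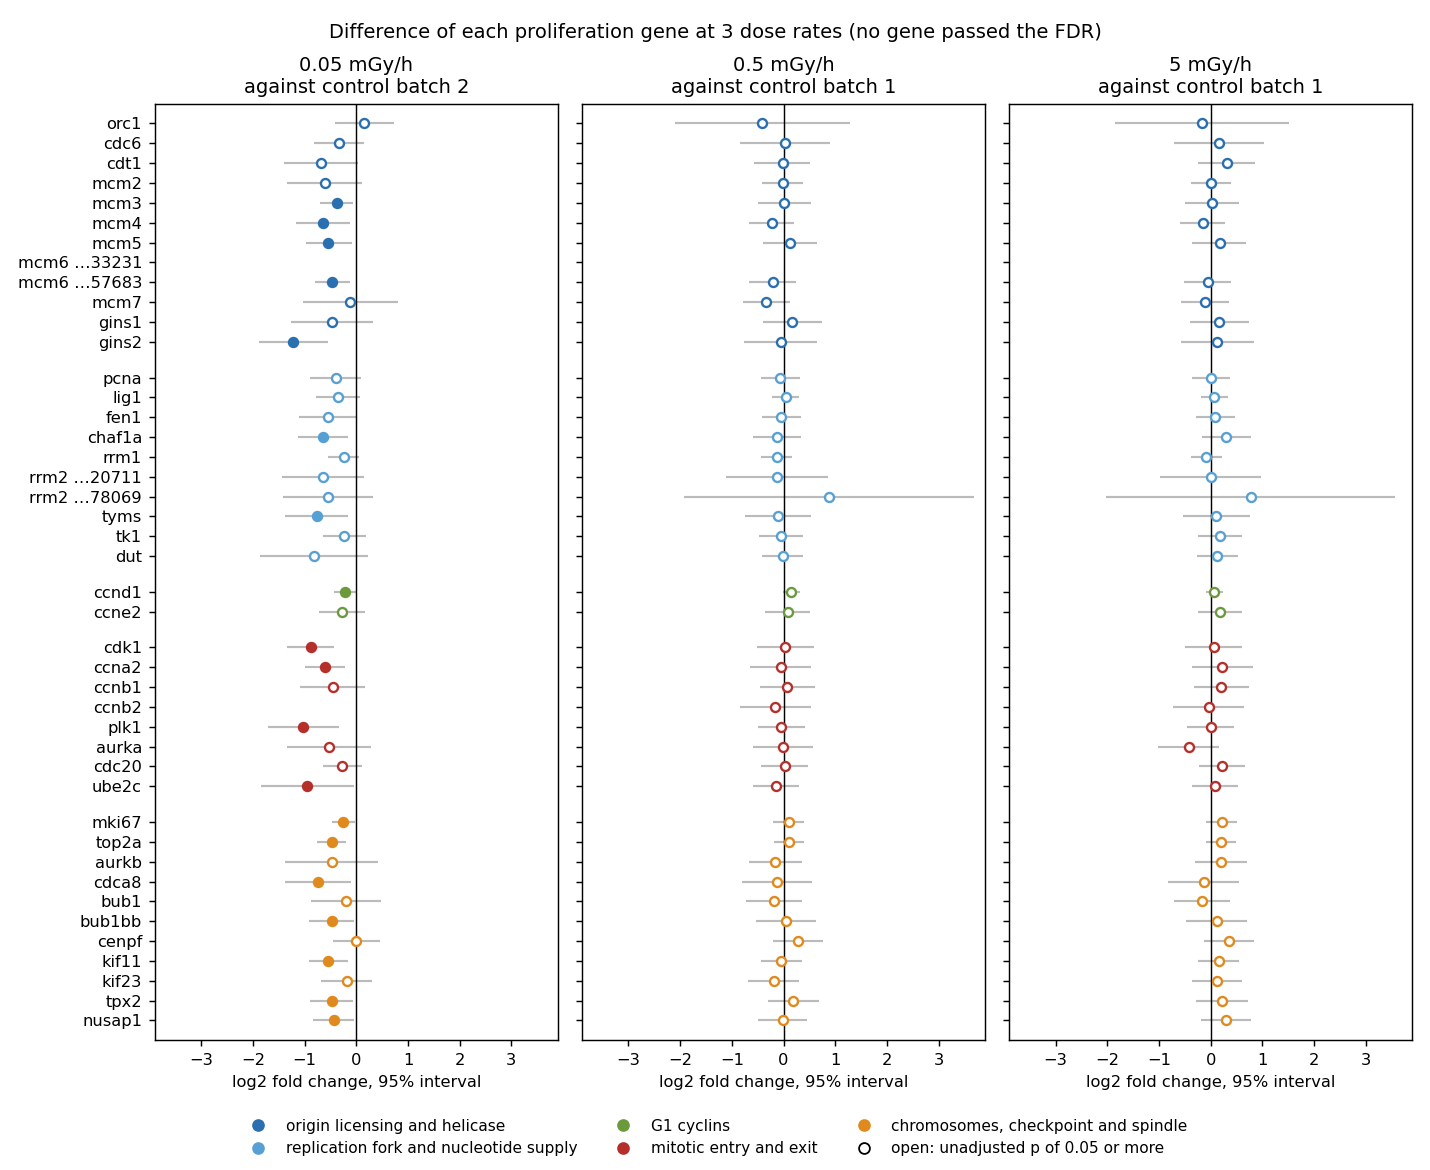
log2 fold changes of the proliferation genes at 0.05, 0.5 and 5 mGy/h against the controls of the same batch, with 95% intervals as bars, and filled points for an unadjusted p under 0.05. At 0.05 mGy/h 39 of 41 lie left of 0 and 19 are filled, and at 0.5 and 5 mGy/h none of 42 is filled. A row without a point was not tested.

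The groups at 5 and 0.5 mGy/h share no library but were each set against the same controls above. Of all genes 56.3% were higher at 5 mGy/h than at 0.5 mGy/h, with a median log2 fold change of 0.03. Of the 42 proliferation IDs tested, 37 were higher and 5 lower (median 0.13 for the S-phase genes and 0.11 for the mitotic genes). With edgeR 0 passed the fdr and the fold change, where 0.00469% of genes did, and 0 had an unadjusted p under 0.05, where 5.24% did, 2.81% as higher and 2.43% as lower. DESeq2 returned 0. Without replicate 1 at 5 mGy/h, 18 were higher and 24 lower (median −0.02, where all genes had 0). Then 4 lay wholly above 0.5 mGy/h and 5 wholly below, where 22.6% and 18.4% of all genes did. With all libraries, the groups did not overlap in 2, where 9.31% of all genes did not overlap, 4.36% above and 4.95% below 0.5 mGy/h. The level of chaf1a was higher at 3.00, 3.09 and 2.80 CPM at 5 mGy/h, against 2.28, 2.36 and 1.96 CPM at 0.5 mGy/h (0.43, −0.04 to 0.90). That of ccnd1 was lower (−0.08, −0.24 to 0.09), with the values given above.

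Other replication and mitotic genes were followed in batch 1 as well. At 0.5 mGy/h the medians were 0.01 over 29 other S-phase genes and 0.02 over 32 other mitotic genes. At an unadjusted p under 0.05 were 2 and 0 of them, where 2.37% of all genes were. These 2 were cdc7 (0.75, SE 0.278), a kinase that fires origins, and pole2 (−0.48, SE 0.205), a polymerase subunit. The groups did not overlap in 4 of the 29 and 4 of the 32 (13.8% and 12.5%), close to the 11.1% of all genes. At 5 mGy/h the medians were 0.05 and 0.13, with 0 and 3 at an unadjusted p under 0.05, where 5.76% of all genes were. These 3 were the kinases melk (0.66, SE 0.199) and pbk (0.43, SE 0.183) and the spindle pole gene aspm (1.26, SE 0.474). The groups did not overlap in 2 of the 29 and 4 of the 32 (6.9% and 12.5%), where 8.89% of all genes did not. Without replicate 1 at 5 mGy/h the medians were −0.10 (11 higher, 18 lower) and −0.01 (15 higher, 17 lower). Of the 11 inhibitors 7 were higher and 4 lower at 0.5 mGy/h (median 0.04), and 8 were higher and 3 lower at 5 mGy/h (median 0.14, range −0.40 to 1.04, with btg2 the highest). At 0.5 mGy/h 2 inhibitors lay wholly above and 2 wholly below the controls (36.4%), where 11.1% of all genes did not overlap. At 5 mGy/h 4 lay wholly above and 1 wholly below (45.5%), where 8.89% of all genes did not overlap. Without replicate 1 at 5 mGy/h, 6 lay wholly above and 2 wholly below (54.5% and 18.2%), where 22.4% and 19.7% of all genes did. At an unadjusted p under 0.05, 2 were then higher and 1 lower (18.2% and 9.09%), where 14.1% and 10% of all genes were. With all libraries, cdkn1a at both dose rates and ccng1 at 5 mGy/h had an unadjusted p under 0.05. The gene cdkn1a, the p21 target of p53, had a log2 fold change of 0.52 at 0.5 mGy/h (SE 0.215, fdr = 1) and of 0.77 at 5 mGy/h (SE 0.215, fdr = 0.807), and of 0.61 at 0.05 mGy/h (SE 0.331, fdr = 0.75). The log2 fold change of ccng1, another target of p53, was 0.25 at 5 mGy/h (SE 0.0746, fdr = 0.807). None of them passed the fdr with edgeR, and the comparisons at 0.5 and 5 mGy/h use the same controls.

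Markers of other regions and cells varied in batch 1 as well. The 3 markers of the habenula summed to 0.311, 12.3 and 22.3 CPM in the order of their level at 0.5 mGy/h, to 0.815, 10.8 and 19.4 CPM at 5 mGy/h, and to at most 0.408 CPM in the controls. Of the 9 radial glial markers 5 were higher and 4 lower at 5 mGy/h (median log2 fold change 0.01). Their summed level ranged from 1250 to 1390 CPM at 5 mGy/h and from 1150 to 1190 CPM at 0.5 mGy/h, against 1020 to 1150 CPM in the controls. The markers s100b and gfap, with an unadjusted p under 0.05, had log2 fold changes of 0.45 (SE 0.0881, fdr = 0.744) and 0.34 (SE 0.119, fdr = 0.807) at 5 mGy/h. They were 2 of 9, where 5.76% of all genes had such a p, 3.26% as higher. Without replicate 1 at 5 mGy/h, 2 of 9 were higher at such a p (22.2%), where 14.1% of all genes were. The part of these regions and cells in the levels of the proliferation genes was not tested.

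The response at the lowest dose rate was set against those at the higher dose rates with an interaction term, fitted to the 21 libraries. The lowest dose rate was run in batch 2 and the others in batch 1, so that dose rate and batch cannot be told apart. The change at 0.5 mGy/h minus that at 0.05 mGy/h was positive in 38 of 42 (median 0.49, where all genes had 0.03). With edgeR and with DESeq2 0 passed the fdr and the fold change, as did 0% of the 21293 genes in edgeR and 0.0105% in DESeq2. In edgeR 7 had an unadjusted p under 0.05, all positive, where 2.03% of all genes did, 1.07% as positive and 0.958% as negative. These were top2a (0.57), ccnd1 (0.36), cdk1 (0.91), gins2 (1.16), plk1 (0.99), tpx2 (0.65) and mki67 (0.34). The change at 5 mGy/h minus that at 0.05 mGy/h was positive in 41 of 42 (median 0.61, all genes 0.10). Again 0 passed with edgeR and with DESeq2, as did 0% of all genes in edgeR and 0.0174% in DESeq2. In edgeR 11 had an unadjusted p under 0.05, all positive, where 4.42% of all genes did, 2.88% as positive and 1.54% as negative. The smallest fdr was 1 in the first of these differences and 0.879 in the second, and top2a (0.67) again had the smallest unadjusted p. Both differences use the same libraries of 0.05 mGy/h and of controls. Without control replicate 6 of batch 2, 35 and 37 of 42 were positive, with 7 and 12 positive at an unadjusted p under 0.05. Then 4.63% and 8% of all genes had such a p in either direction, 3% and 3.43% as negative. Without replicate 1 at 5 mGy/h the second difference was positive in 38 of 42, with 3 positive and 1 negative at an unadjusted p under 0.05. Of all genes 5.38% had such a p, 1.57% as negative.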

How the data were processed

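RNA of adult telencephalons was sequenced as 21 libraries with a stranded mRNA kit. The authors deposited read counts per Ensembl gene from RNA-STAR (GRCz11 with Ensembl genes, per the study's methods), without normalization. DESeq2 1.22.2 is named in the submitters' notes. The counts of the kit's strand (column 4) were used, and the unstranded counts were an alternative. Names were paired with 28988 of 32057 IDs, without regard to letter case.

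Groups, batches and replicate numbers were taken from the labels. Nothing beyond the pools tells how independent the replicates are, so that p-values measure the spread between these libraries. Genes were fitted within each batch with edgeR 4.0.16 (R 4.3.3) with TMM scaling, the filterByExpr filter and the quasi-likelihood test, with Benjamini-Hochberg adjustment over all genes. The 3 groups of batch 1 shared a fit. Differences between batches were interactions over 21 libraries. The threshold was an fdr under 0.05 together with at least a 1.5-fold change. CPM were computed after TMM scaling, and 95% intervals from the SE with a t quantile. No libraries were identical.

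The genes and lists were chosen with earlier results of these data known. Named in full are pcna, mcm2, mcm5, rrm2, ccnd1, mki67, top2a, cdk1, ccnb1 and plk1, those that passed, and up to 6 others per dose rate with the smallest unadjusted p under 0.05. Up to 3 genes of each other list were named by the same p, and genes named beyond this were chosen after their values were seen. In batch 2 the deviations of same-numbered libraries from their group means correlated at 0.18 to 0.31 in 6 of 6 pairs. Pairs of unlike numbers ranged from −0.36 to 0.33. For each library at 0.05 mGy/h except replicate 4, the highest correlation was with the control of the same number. A pairing in batch 2 is therefore possible, but the labels state none. The main fits used no block and left such a pairing out. With the number as a block, 0 proliferation genes passed in any comparison.

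Tested on simulated data with the design of 0.05 mGy/h (19454 genes), edgeR returned 0% of genes changed 1.5-fold, 32% of those changed 2-fold and 78% of those changed 3-fold. With the design of 5 mGy/h (21307 genes) it returned 0%, 20% and 60%. Of the genes that edgeR returned, 5.71% and 2.82% had not been changed in these designs, against 17.4% and 30.4% with DESeq2. A 1.5-fold change equals the threshold, so that such genes can fail by their fold alone. The simulated data held no library that stands apart, as control replicate 6 of batch 2 does. Alternatives were DESeq2 1.42.0, RLE size factors, no filter, at least 10 counts in every library, the replicate block, no fold threshold, other sets of libraries in the fit, 18 libraries (without control replicate 1 and 0.5 mGy/h replicate 1 of batch 1 and control replicate 6 of batch 2) and leaving out each library in turn.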

Additional observations from a re-analysis of the deposited data

Results flagged for a closer look

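Within the groups of 6 libraries, a single library lay far from the rest for several proliferation genes. In control replicate 6 of batch 2, 10 of the 16 values examined were set apart by Dixon's criterion, which chance would meet in about 1 in 20 groups, and the values share this library. They were mcm2 (18.2 CPM), mcm5 (11.5 CPM), gins2 (3.49 CPM), pcna (126 CPM), rrm2 ENSDARG00000020711 (16.7 CPM), ccna2 (5.10 CPM), ccnb1 (6.00 CPM) and plk1 (3.96 CPM), and the sums over the S-phase genes (400 CPM) and the mitotic genes (103 CPM). The sums lay between 159 and 178 CPM and between 68.8 and 75 CPM in the other controls. mki67, top2a, ccnd1, cdk1, kif11 and rrm2 ENSDARG00000078069 were not set apart in this library. At 0.05 mGy/h only mcm2 in replicate 5 was set apart, as the lowest of its group at 3.77 CPM.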

How the results depend on the processing

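The number of proliferation genes that passed the fdr and the fold change stayed at 0 in every comparison under each alternative planned, including the replicate block, DESeq2 and leaving out each library in turn. The exception was added after the values had been seen: DESeq2 without control replicate 6 of batch 2 returned 1 gene, cdk1 (−0.70), with a median of −0.29 for the mitotic genes. The replicate block without this library and without replicate 6 at 0.05 mGy/h, added likewise, returned 0 of 40. At an unadjusted p under 0.05 were 16 lower and 1 higher, where 12.2% of all genes had such a p, 5.94% as lower. At 0.05 mGy/h no gene followed in full changed direction under any alternative. With the replicate block the medians there were −0.40 for the S-phase and −0.46 for the mitotic genes, with 15 lower at an unadjusted p under 0.05, where 2.54% of all genes were lower. With each library left out in turn, the medians ranged from −0.60 to −0.28 (S-phase) and from −0.54 to −0.30 (mitotic) at 0.05 mGy/h, from −0.17 to 0.04 and −0.05 to 0.05 at 0.5 mGy/h, from −0.05 to 0.20 and 0.00 to 0.19 at 5 mGy/h, and from −0.06 to 0.23 and 0.03 to 0.19 between 5 and 0.5 mGy/h. The directions in batch 1 are not firm. At 0.5 mGy/h, ccnb1 (−0.01), plk1 (0.11) and mki67 (−0.01) changed direction with 18 libraries. At 5 mGy/h, mcm2 did so with DESeq2 (−0.01), RLE size factors (0.00) and 18 libraries (−0.01), and pcna with DESeq2 (−0.01), RLE size factors (−0.01), no filter (0.00), the replicate block (0.00) and 18 libraries (−0.04). The first ID of rrm2 did so with at least 10 counts (0.00) and the block (0.04), and plk1 with at least 10 counts (0.01), unstranded counts (0.02) and 18 libraries (0.10). With single libraries left out, directions at 0.5 mGy/h changed for mcm2 (−0.15 to 0.10), mcm5 (−0.14 to 0.28), pcna (−0.11 to 0.02), rrm2 ENSDARG00000020711 (−0.73 to 0.10), cdk1 (−0.12 to 0.14), ccnb1 (−0.01 to 0.21) and plk1 (−0.16 to 0.07). At 5 mGy/h they changed for mcm2 (−0.06 to 0.10), pcna (−0.21 to 0.13), rrm2 ENSDARG00000020711 (−0.35 to 0.24), cdk1 (−0.18 to 0.19), ccnb1 (−0.04 to 0.30) and plk1 (−0.09 to 0.10). The cause was not tested. In batch 1 same-numbered deviations correlated at −0.53 to 0.11, which gave no sign of a pairing, and the block there left the counts at 0. Depth limits genes such as gins2 and plk1, with 10 and 13 reads in their lowest libraries. In simulated data of these designs edgeR returned 0% of genes changed 1.5-fold, which is the threshold itself. The simulated data held no library that stands apart, so that they cannot tell why no proliferation gene passed.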
